A study of Mus musculus with 8 samples.

Results

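The mouse Serpina3 genes Serpina3f, Serpina3g, Serpina3i and Serpina3n were followed in tumour endothelial cells (ECs) by single-cell RNA sequencing. These 4 genes were chosen by name out of 20408 genes listed in any library, and all 4 were listed in all 8 libraries. Their levels were read in cells with at least 1 UMI of the EC gene Pecam1, which were 7159 of 8204 deposited cells and 601 to 1529 per library. Because Pecam1 UMIs chose the cells, Pecam1 itself is not reported as a result. A UMI is a tag that counts an RNA molecule once. The libraries were made from the RNA ends, with a single tag per transcript, so levels were not divided by gene length.

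The libraries came from CD31+ cells sorted from 2 tumour models, 2 libraries in each of 4 groups. MMTV-PyMT mice carry the polyoma middle T oncogene under a mammary promoter and form spontaneous breast tumours, and their females were treated from 9 weeks of age. Implanted tumours were grown from cells of such spontaneous tumours, placed after culture in the mammary fat pad of females of at least 8 weeks. The tumour cells of both models thus come from mice with the same oncogene. The methods name no transgene in the recipients, whereas the spontaneous hosts carry it. Host genotype, and with it that of the host ECs, therefore cannot be told apart from how the tumour arose. Each model received an intratumoural (i.t.) injection of PBS or of cGAMP, the cyclic dinucleotide that activates the innate immune sensor STING, and tumours were taken 3 h later. The strain is C57BL/6 in the labels and FVB in the methods, which is not settled, but neither gives the models different strains. The methods give 2 mice per group. The p-values below rest on a single estimate per gene of the spread between libraries within groups, shared by all 4 groups. An SE can thus understate the spread of a group whose libraries lie far apart.

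Serpins are protease inhibitors that trap their target by offering a reactive loop as bait. Humans have a single SERPINA3 gene, the secreted acute phase protein alpha-1-antichymotrypsin, whereas the mouse has an expanded cluster of related copies whose reactive loops differ. Serpina3g, also named Spi2A, lacks a secretion signal and inhibits lysosomal cathepsins in the cytosol, and it is known as an interferon-gamma target. Serpina3n is secreted and inhibits granzyme B and neutrophil proteases.

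The 4 genes lie on the plus strand of chromosome 12 (GRCm38) within 199786 bases, in a cluster of 14 annotated Serpina3 genes of which 10 are protein-coding. Serpina3f spans chr12:104214544-104221129, Serpina3g chr12:104236245-104241939, Serpina3i chr12:104263122-104269372 and Serpina3n chr12:104406729-104414329. The longest coding transcripts of Serpina3f and Serpina3g were 89.4% identical when aligned, and those of Serpina3f and Serpina3n were 80.7% identical. Of the 91-base words in the last 400 bases of their coding transcripts, none of Serpina3f, Serpina3i or Serpina3n and 8.22% of Serpina3g (shared with Serpina3f, Serpina3h and Serpina3i) occurred in a transcript of another Serpina3 gene. Reads in such stretches could be lost or counted for a neighbour. Their number would follow the level of the source gene in each library, and it was not measured. Of the other Serpina3 genes, Serpina3m had 0 to 3 UMIs and Serpina3c 0 UMIs in the libraries that listed them.

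The promoters are shown because Serpina3f and Serpina3g were higher together in implanted tumours after PBS. They run from 250 bases before to 50 bases after the RefSeq start (GRCm38.p6, plus strand), and RefSeq entries were found for 4 of the 4 genes. Capitals mark matches to 2 of the searched motifs, the GAS-type word TTCNNNGAA known from interferon-gamma signalling and a kappaB-type word known from NF-kB signalling.
Serpina3f, chr12:104214294-104214593: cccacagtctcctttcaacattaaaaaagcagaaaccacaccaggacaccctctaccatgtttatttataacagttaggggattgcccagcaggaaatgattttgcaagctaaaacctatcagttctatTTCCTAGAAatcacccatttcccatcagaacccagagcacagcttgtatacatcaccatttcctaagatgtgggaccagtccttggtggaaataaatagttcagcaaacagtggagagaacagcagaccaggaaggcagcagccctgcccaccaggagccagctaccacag
Serpina3g, chr12:104235897-104236196: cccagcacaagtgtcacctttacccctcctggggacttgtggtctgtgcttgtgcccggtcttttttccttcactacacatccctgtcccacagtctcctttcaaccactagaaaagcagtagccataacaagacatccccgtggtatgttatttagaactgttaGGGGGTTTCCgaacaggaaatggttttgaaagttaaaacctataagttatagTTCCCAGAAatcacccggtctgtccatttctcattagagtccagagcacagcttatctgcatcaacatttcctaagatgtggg
Serpina3i, chr12:104262872-104263171: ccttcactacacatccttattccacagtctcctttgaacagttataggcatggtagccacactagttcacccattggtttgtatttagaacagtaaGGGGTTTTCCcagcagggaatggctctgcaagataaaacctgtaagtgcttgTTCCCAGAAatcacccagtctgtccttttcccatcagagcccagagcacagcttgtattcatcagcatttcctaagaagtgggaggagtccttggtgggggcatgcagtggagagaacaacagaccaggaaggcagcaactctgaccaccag
Serpina3n, chr12:104406458-104406757: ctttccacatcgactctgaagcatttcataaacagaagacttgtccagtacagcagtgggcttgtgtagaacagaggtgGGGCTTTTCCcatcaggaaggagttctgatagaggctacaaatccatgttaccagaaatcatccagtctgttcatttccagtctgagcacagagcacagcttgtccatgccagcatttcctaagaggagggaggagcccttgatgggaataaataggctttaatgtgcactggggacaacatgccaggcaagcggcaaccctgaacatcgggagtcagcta

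The GAS-type word was read in Serpina3f as TTCCTAGAA at base -121 from the start, in Serpina3g as TTCCCAGAA at -33 and in Serpina3i as TTCCCAGAA at -102, and was not in the Serpina3n window. Serpina3f has another RefSeq start, with the window chr12:104214383-104214682 (not shown), from which the same word lies at -210. The kappaB-type word was in the windows of Serpina3g (GGGGGTTTCC at -85), Serpina3i (GGGGTTTTCC at -154) and Serpina3n (GGGCTTTTCC at -171), and not in that of Serpina3f. Both strands were searched, and of 32851 mouse promoter windows of this length 8.30% held the GAS-type word and 1.63% the kappaB-type word. An interferon-response (ISRE-type) word, held by 3.44%, was in none of the 4. The windows shown for Serpina3f, Serpina3g and Serpina3i were 79.7% to 83.7% identical to each other where aligned. They were 69.5% to 71.0% identical to that of Serpina3n. Matches in such related windows are not independent of each other, so they cannot be weighed against these shares. These are letter matches and not measured sites.

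Depth and cell make-up bear on all values. The libraries held 97421522 UMIs in all, and 7 cell barcodes occurred in more than 1 library. In replicate 1 of implanted cGAMP the Pecam1 > 0 cells had a median of 3049 UMIs, against 9523 to 14707.5 in the other libraries. All 7 EC markers were detected in every library, with a summed level of 5502 to 6565 CPM (UMIs per 1000000 UMIs of a cell, averaged over cells). Pecam1 is among these 7 and chose the cells, so its own detection was given in advance and it adds to the sum. Summed markers of other cell types in the same cells were 188 to 936 CPM for 9 mural markers, 16.0 to 280 CPM for 9 immune markers, 162 to 1139 CPM for 9 epithelial tumour markers and 15.0 to 151 CPM for 7 fibroblast markers. In implanted cGAMP libraries the immune sum was 83.2 and 280 CPM, against 16.0 and 28.7 CPM in implanted PBS libraries, and its part in the results was not tested. Fewer cells of a type and less RNA per cell cannot be told apart in these library means.

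The first question was whether cGAMP moved the genes in spontaneous tumour ECs. Serpina3f had 3.32 and 5.43 CPM in the PBS libraries and 65.7 and 50.5 CPM in the cGAMP libraries. Serpina3g had 5.61 and 6.79 CPM after PBS and 60.4 and 46.9 CPM after cGAMP. Both cGAMP libraries thus stood far above both PBS libraries for both genes, and the groups did not overlap. On the scale of log2(CPM + 1), Serpina3f rose by 3.48 ± 0.39 (SE; limma, adjusted p = 0.000357) and Serpina3g by 2.92 ± 0.39 (adjusted p = 0.00122). Serpina3i had 0.828 and 1.06 CPM after PBS and 4.47 and 3.13 CPM after cGAMP, a difference of 1.29 ± 0.42 that did not pass (limma, adjusted p = 0.0747). Serpina3n, at 25.0 and 36.1 CPM after PBS and 49.6 and 39.5 CPM after cGAMP, differed by 0.54 ± 0.29 (limma, adjusted p = 0.249). So 2 of the 4 genes rose, in a comparison in which 5.09% of the 10424 genes tested rose, 7.59% fell and 12.7% passed in either direction. The split between genes that rose and fell depends on the scaling. Of the genes called, 40.2% rose in spontaneous and 34.3% in implanted tumours, against 66.4% and 51.5% with median-of-ratios scaling, which moved the median of all genes from -0.10 in both to -0.0036 and -0.0071.

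**Figure D1:**
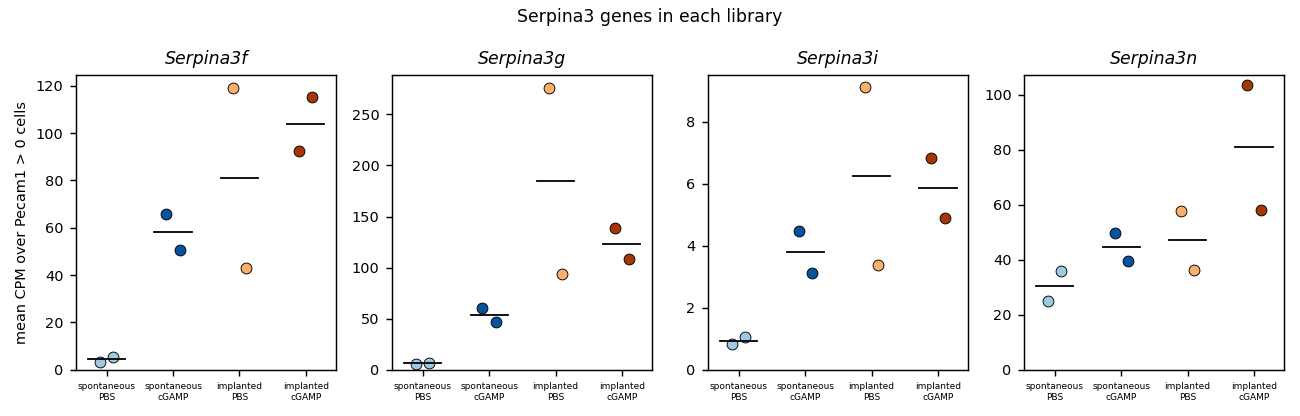
Mean CPM over Pecam1 > 0 cells (y axis, linear and starting at 0) for each of the 4 Serpina3 genes in the 4 groups; points are libraries and bars are means of 2. Serpina3f and Serpina3g lie between 3.32 and 6.79 CPM in spontaneous PBS and at 43.2 CPM or above in all implanted libraries, and Serpina3i is low throughout.

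The same question was asked in implanted tumours, where the starting levels were far higher and the PBS libraries were far apart. Serpina3f had 119 and 43.2 CPM after PBS and 92.4 and 115 CPM after cGAMP. Serpina3g had 275 and 93.3 CPM after PBS and 138 and 108 CPM after cGAMP, so that both cGAMP libraries lay between the PBS libraries. The difference was 0.52 ± 0.39 for Serpina3f (limma, adjusted p = 0.370) and -0.39 ± 0.39 for Serpina3g (adjusted p = 0.508). With a library left out, its group has 1 library, which the fit assumes to vary like the other groups, and the sign then depended on which replicate of implanted PBS was kept. Without replicate 1 the differences became 1.24 for Serpina3f (limma, adjusted p = 0.0153) and 0.39 for Serpina3g (adjusted p = 0.255), and without replicate 2 they became -0.20 (adjusted p = 0.669) and -1.17 (adjusted p = 0.00887). Serpina3i had 9.11 and 3.38 CPM after PBS and 6.84 and 4.90 CPM after cGAMP. Serpina3n had 57.7 and 36.3 CPM after PBS and 103 and 58.2 CPM after cGAMP, a difference of 0.75 ± 0.29 (limma, adjusted p = 0.0911). It passed without replicate 2 of implanted cGAMP (1.16, adjusted p = 0.0164). Of the 4 genes 0 passed in either direction (limma), 1 had an unadjusted p under 0.05, and 25% of all genes tested passed, 8.6% up and 16.4% down.

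Mural-like cells also held Serpina3n. In replicate 1 of implanted cGAMP a mural-like cluster of 146 cells held Serpina3n at 400 CPM, and in replicate 2 a mural-like cluster of 16 cells held it at 171 CPM, against 38.1 and 56.6 CPM in the 14 and 12 mural-like cells of implanted PBS. Pecam1 > 0 cells set aside with the mural-like, epithelial-like and shallow clusters were 40.2% of the cells of replicate 1 of implanted cGAMP and held 30.3% of its Serpina3n UMIs, and in replicate 2 they were 14.7% of the cells and held 5.0%. The summed mural markers in Pecam1 > 0 cells were 395 and 188 CPM in implanted cGAMP and 229 and 215 CPM in implanted PBS. With EC clusters alone the response of Serpina3n was 0.60 ± 0.24 (limma, adjusted p = 0.0860).

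The responses were then compared directly. The response of Serpina3g was lower in implanted than in spontaneous tumours by 3.31 ± 0.55 on the log2 scale (limma, adjusted p = 0.0398), in a comparison in which 0.46% of all genes were lower and 0.201% higher. This call was lost without any single spontaneous library, with adjusted p between 0.0954 (without replicate 2 of PBS) and 0.192 (without replicate 2 of cGAMP), at a change of -3.49 to -3.13. The difference for Serpina3f was -2.96 ± 0.55 (limma, adjusted p = 0.0527), and it passed in 9 of 20 alternative settings. The difference was -1.26 ± 0.59 for Serpina3i (limma, adjusted p = 0.396) and 0.21 ± 0.41 for Serpina3n (adjusted p = 0.871).

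After PBS, the models already differed. Serpina3g was higher in implanted than in spontaneous tumour ECs by 4.49 ± 0.39 (limma, adjusted p = 0.000252) and Serpina3f by 3.79 ± 0.39 (adjusted p = 0.000657). Serpina3i also passed, at 1.78 ± 0.42 (limma, adjusted p = 0.0340). It met the filter of 5 CPM in 2 libraries only through implanted libraries, at 9.11 and 6.84 CPM, so this call is not counted. For Serpina3f and Serpina3g the lower implanted library, at 43.2 and 93.3 CPM, stood well above the higher spontaneous one, at 5.43 and 6.79 CPM. Serpina3n had a difference of 0.59 ± 0.29 (limma, adjusted p = 0.250). So Serpina3f and Serpina3g were higher, against 3.39% of all genes higher, 4.44% lower and 7.83% either way. With median-of-ratios scaling 67.9% of the calls were higher in place of 43.3%. The calls of Serpina3f and Serpina3g were kept in 20 of 20 alternative settings and that of Serpina3i in 11 of 18, and it was lost without any single spontaneous library (adjusted p up to 0.130, without replicate 2 of spontaneous PBS).

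After cGAMP the models were compared again. The difference was 0.83 ± 0.39 for Serpina3f (limma, adjusted p = 0.182), 1.18 ± 0.39 for Serpina3g (adjusted p = 0.0737), 0.52 ± 0.42 for Serpina3i (adjusted p = 0.447) and 0.80 ± 0.29 for Serpina3n (adjusted p = 0.0997). None of the 4 passed in limma, where 13.8% of all genes did (5.23% higher and 8.53% lower), although 2 had an unadjusted p under 0.05. With median-of-ratios scaling 58.7% of the calls after cGAMP were higher, in place of 38.0%. Serpina3g passed without either replicate of implanted PBS (limma, adjusted p = 0.00552 and 0.00566), as did Serpina3f (0.0391 and 0.0406). Serpina3n passed without replicate 2 of implanted cGAMP (1.21, adjusted p = 0.0216). These comparisons share libraries, so that the high implanted PBS level enters both the response in implanted tumours and the difference between models after PBS.

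**Figure D2:**
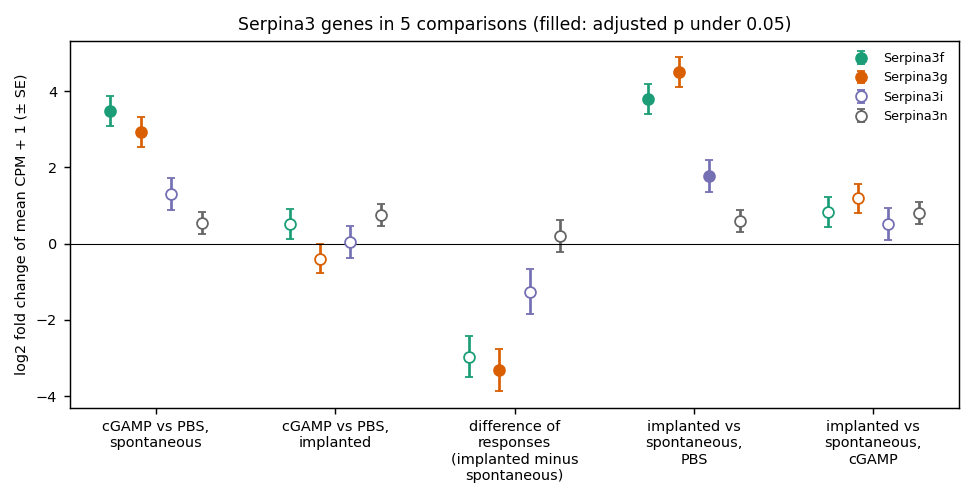
Log2 fold change of mean CPM + 1 with its SE (y axis) for the 4 genes in 5 comparisons (x axis), with filled points for an adjusted p under 0.05. Serpina3f and Serpina3g stand at 2.92 to 4.49 in the spontaneous response and between models after PBS, and at -3.31 and -2.96 in the difference of responses, whereas Serpina3n lies between 0.21 and 0.80 throughout.

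The make-up of the Serpina3 RNA changed with the groups. In spontaneous PBS libraries Serpina3n gave 67.4% and 63.0% of the UMIs of the 4 genes. In spontaneous cGAMP libraries it gave 23.2% and 25.3%, and Serpina3f and Serpina3g together gave most of the rest. In implanted PBS libraries Serpina3g gave 63.3% and 54.4%, and in implanted cGAMP libraries 36.8% and 37.2%, while Serpina3f gave 24.2% and 27.4% after PBS and 32.8% and 39.4% after cGAMP. Serpina3i stayed between 1.71% and 3.24% in all libraries. The shares of a gene did not overlap between PBS and cGAMP in either model. For Serpina3i they were close, at 1.71% and 2.10% after PBS against 2.39% and 2.45% after cGAMP in implanted tumours. These rest on 79 to 136 UMIs per library, and counting error was not worked out for them. The 4 shares of a library sum to a whole, so they do not vary independently. Groups of 2 libraries can also separate without a true difference, and how often this held over all genes was not counted. The shares are descriptions without a test, from 10 to 5029 UMIs per gene and library.

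**Figure D3:**
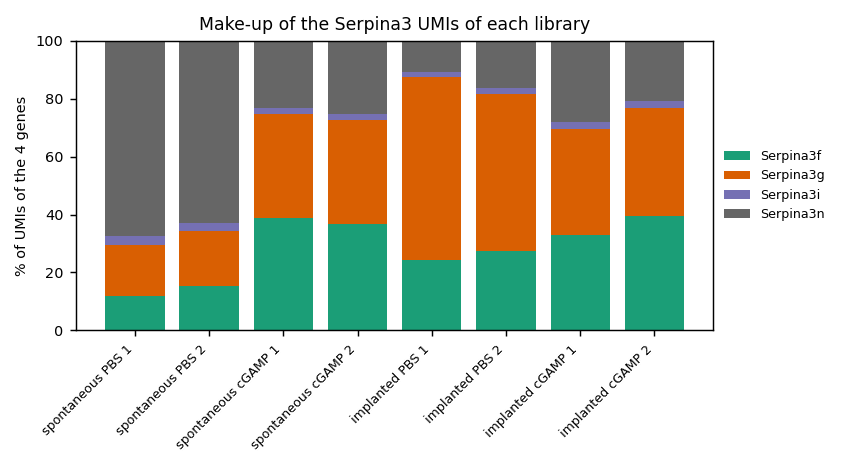
Percent of the UMIs of the 4 Serpina3 genes that each gene took (y axis, stacked to 100) in each library (x axis). Serpina3n takes 63.0% to 67.4% in spontaneous PBS, and Serpina3g takes 54.4% to 63.3% in implanted PBS.

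Most ECs held no UMI of these genes. Because shares depend on depth, each cell was thinned to 2000 UMIs, and 22 to 580 shallower cells per library were left out. A Serpina3f UMI was then found in 0.579% and 0.722% of cells in spontaneous PBS, 7.87% and 7.64% in spontaneous cGAMP, 13.7% and 6.62% in implanted PBS and 14.9% and 16.5% in implanted cGAMP. For Serpina3g the shares were 0.811% and 1.81%, 7.56% and 5.46%, 19.6% and 11.4%, and 16.9% and 14.2% in the same order. In replicate 1 of spontaneous PBS the exact 95% interval for Serpina3f was 0.188% to 1.35%, and in replicate 1 of spontaneous cGAMP it was 5.92% to 10.2%. These intervals cover counting error only. As a background for free RNA, an arterial-like cluster (number 4 below) had Serpina3f UMIs in 0% to 2.44% and Serpina3g UMIs in 0% to 2.50% of its cells over the 8 libraries. In spontaneous PBS it had 0 of 70 and 0 of 32 cells with a UMI of either gene, which allows a share of up to 4.29% and 9.38%. Whether the spontaneous PBS shares exceed that of cluster 4 could thus not be told at this depth. Unthinned, the UMIs of both spontaneous PBS libraries were unevenly spread over the clusters described below. Serpina3f had 0 UMIs in arterial-like cluster 3, 0 in tip-like cluster 2, 12 in cluster 4 and 52 in the Ccl20 cluster. Serpina3g had 0, 2, 7 and 74 UMIs in the same order. Serpina3n UMIs were in 3.94% and 4.87% of cells in spontaneous PBS, 6.33% and 4.52% in spontaneous cGAMP, 8.34% and 5.84% in implanted PBS and 17.1% and 9.03% in implanted cGAMP, and Serpina3i UMIs in 0.116% to 1.32%. Unthinned, Serpina3f was seen in 1.97% to 40.6% and Serpina3g in 2.38% to 32.0% of cells per library.

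**Figure D4:**
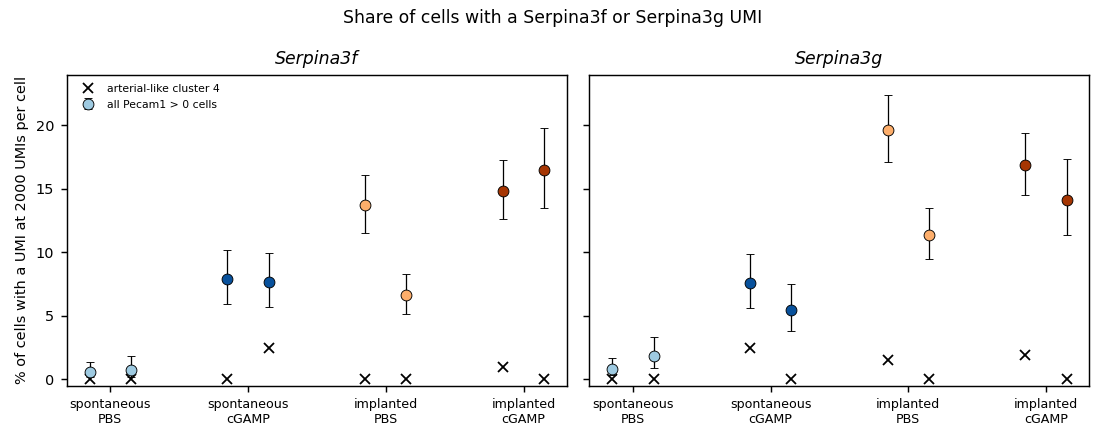
Percent of cells with a Serpina3f or Serpina3g UMI after thinning to 2000 UMIs per cell (y axis) in each library; circles are all Pecam1 > 0 cells with exact binomial 95% intervals and crosses are cells of arterial-like cluster 4. All implanted and the spontaneous cGAMP libraries lie at 5.46% or above, and cluster 4 stays at 2.50% or below.

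The UMIs were concentrated in a few cells. The top 5% of cells held 48.7% to 72.1% of the Serpina3f UMIs outside spontaneous PBS, and a single cell of implanted PBS held up to 173 Serpina3g UMIs. Serpina3f and Serpina3g were found in overlapping cells. At 2000 UMIs, 42.5% and 39.3% of cells with a Serpina3g UMI in implanted PBS also had a Serpina3f UMI, against 6.69% and 2.42% of cells without one. In spontaneous cGAMP these shares were 40.8% and 31.4% against 5.18% and 6.27%, and in implanted cGAMP 34.4% and 33.8% against 10.9% and 13.6%. Within the unnamed cluster 0 of implanted PBS the shares were 52.9% and 48.3% against 9.48% and 5.65%. Cells share library and cluster, so this is a description, and cells of the same library are not replicates. Serpina3g shares some transcript-end words with Serpina3f, and whether reads counted for the other gene entered this overlap was not tested.

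The cells were next divided by vessel type. The 5711 Pecam1 > 0 cells that remained after mural-like, epithelial-like and shallow clusters were set aside formed 11 clusters. The shallow cluster had 1605 cells, of which 66.9% had a Pecam1 UMI, and a median of 1373 UMIs. It passed 2 of 9 epithelial tumour markers, under the 3 needed for a name, so it was not shown to be another cell type. The Serpina3 genes and genes raised by cGAMP were kept out of the clustering. Clusters were named where markers allowed it, and differences in level between clusters are given without a test. They were an unnamed cluster 0 led by Ptn and Ramp3, stalk-like (postcapillary venous) clusters 1 (Ackr1, Selp) and 8 (Tmem108, Ncam1), tip-like cluster 2 (Pgf, Nos2), arterial-like clusters 3 (Npr3, Gja5) and 4 (Gkn3, Mgp), AQP7+ capillary-like cluster 5, proliferative-like cluster 6, lymphatic-like cluster 7, unnamed cluster 9 (Enpp2, Pde1c) and a cluster 10 of 63 cells. Cluster 10 passed the lymphatic marker rule but was led by Ccl20, Glycam1 and Madcam1, of which the last 2 are known from venules that recruit lymphocytes, so it is called here the Ccl20 cluster. Neither it nor cluster 8 had a marker of its own list among its 10 leading genes, and cluster 8 kept its name because 8 of 9 stalk-like markers passed.

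In spontaneous PBS tumours, most Serpina3f and Serpina3g RNA came from a few cells. The Ccl20 cluster, with 11 and 9 cells in the 2 libraries, held 55.0% and 53.6% of the Serpina3f UMIs and 58.3% and 57.4% of the Serpina3g UMIs. Its level was 157 and 249 CPM for Serpina3f and 306 and 301 CPM for Serpina3g. The unnamed cluster 0 had 1.3 CPM of Serpina3f in both libraries, and the tip-like cluster had 0 UMIs of Serpina3f in both. In the other groups the Ccl20 cluster, with 0 to 19 cells per library, had 144 to 476 CPM of Serpina3f and 131 to 708 CPM of Serpina3g where it had cells, and held at most 14.3% of the Serpina3g UMIs. Replicate 1 of implanted PBS had 0 cells of it, and the next library 4.

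The spontaneous response was then read by vessel type. In the stalk-like cluster 1 Serpina3g had 1.6 and 6.6 CPM after PBS and 222 and 143 CPM after cGAMP. In the tip-like cluster 2 Serpina3f went from 0 UMIs in both PBS libraries to 53.6 and 52.9 CPM, averaged over cells. Pooled over both cGAMP libraries this was 288 UMIs or 66.8 CPM, at least 58.3-fold higher than the 1.15 CPM that 3 UMIs in the pooled PBS libraries would give. Tip cells lead vessel sprouts, and stalk-like cells here carry venous adhesion genes. Tested per vessel type, Serpina3f rose in 4 of the 5 named types with enough cells, which were AQP7+ capillary-like, arterial-like, stalk-like and tip-like, in fits in which 1.76%, 4.29%, 4.75% and 7.99% of genes passed. In stalk-like cells it rose by 4.80 ± 0.28 (limma, adjusted p = 1.22e-08). In arterial-like cells it rose by 3.12 ± 0.53 (limma, adjusted p = 0.00267), and in AQP7+ cells by 3.68 ± 0.64 (adjusted p = 0.000711), a call lost without replicate 1 of spontaneous cGAMP (adjusted p = 0.0760). Serpina3g rose in 2 of the 5 types, by 5.16 ± 0.34 in stalk-like (limma, adjusted p = 4.00e-08) and by 4.38 ± 0.56 in tip-like cells (adjusted p = 9.02e-05). In arterial-like clusters 3 and 4 Serpina3g had means of 8.5 and 4.0 CPM after cGAMP. It was 13.0 and 1.7 CPM in AQP7+ cells after cGAMP and 0 and 2.6 CPM after PBS. In lymphatic-like cells of spontaneous tumours none of the 4 genes passed in limma, where 2.28% of all genes did.

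The unnamed cluster 0 had the most cells, 1165. Serpina3g there had 0.9 and 0.2 CPM in spontaneous PBS, 39.2 and 52.8 CPM in spontaneous cGAMP, 563 and 212 CPM in implanted PBS and 186 and 86.0 CPM in implanted cGAMP. With cGAMP it rose by 4.93 ± 0.41 in the spontaneous model (limma, adjusted p = 1.39e-06) and fell by 1.44 ± 0.41 in the implanted one (adjusted p = 0.0359), in fits where 5.18% and 11.7% of genes passed. The responses differed by -6.37 ± 0.58 (limma, adjusted p = 2.78e-05), where 1.06% of genes passed. In limma the fall in implanted tumours was lost without replicate 1 of implanted PBS (-0.74, adjusted p = 0.386), replicate 2 of implanted cGAMP (-0.89, adjusted p = 0.208) or either replicate of spontaneous cGAMP (-1.44, adjusted p = 0.0573 and 0.0605), whereas the difference was kept in 9 of 9 alternatives. Serpina3f in the same cells had 1.3 and 1.3, 61.0 and 72.2, 214 and 92.9, and 147 and 101 CPM in the same order. Its difference of responses was -5.07 ± 0.45 (limma, adjusted p = 2.21e-05). All 4 genes were higher after cGAMP in cluster 0 of spontaneous tumours, with 2.91 ± 0.51 for Serpina3i (limma, adjusted p = 0.00263) and 2.06 ± 0.49 for Serpina3n (adjusted p = 0.0245), where 5.18% of genes passed. Serpina3n there was at 0.6 and 0.5 CPM after PBS and 5.5 and 5.3 CPM after cGAMP, and its call was lost without any single spontaneous library (limma, adjusted p of 0.0822 to 0.166). The Serpina3i call was lost without replicate 1 of spontaneous cGAMP (limma, adjusted p = 0.0538).

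After PBS, cluster 0 was higher in implanted tumours for all 4 genes, by 5.94 ± 0.32 for Serpina3f, 7.83 ± 0.41 for Serpina3g, 3.34 ± 0.51 for Serpina3i and 2.71 ± 0.49 for Serpina3n (limma, adjusted p = 2.57e-08, 2.37e-08, 0.00101 and 0.00393, where 5.64% of genes passed). The Serpina3n call was not kept without replicate 1 of implanted PBS (2.22, limma, adjusted p = 0.112). Of the 5 named types, Serpina3f and Serpina3g were higher after PBS in the same 4, the AQP7+ capillary-like, arterial-like, stalk-like and tip-like cells, where 1.23%, 1.65%, 5.6% and 3.27% of genes passed. In stalk-like cells the differences were 4.29 ± 0.28 for Serpina3f and 5.46 ± 0.34 for Serpina3g (limma, adjusted p = 1.37e-07 and 8.11e-08). In lymphatic-like cells neither passed in limma, where 1.51% of genes did, but this type pools cluster 7 with the Ccl20 cluster, which gave 11 of 28 and 9 of 31 of its cells in spontaneous PBS and 0 of 56 and 4 of 46 in implanted PBS. In cluster 7 alone Serpina3g had 73.2 and 12.6 CPM in spontaneous PBS and 59.7 and 48.3 CPM in implanted PBS. In AQP7+ cells the Serpina3f call was lost without replicate 2 of spontaneous PBS (2.42, limma, adjusted p = 0.0658) or replicate 1 of implanted PBS (3.31, adjusted p = 0.102). The AQP7+ Serpina3g call was not kept without replicate 1 of implanted PBS (2.91, limma, adjusted p = 0.564) or either replicate of spontaneous PBS (adjusted p = 0.317 and 0.0703), and the arterial-like Serpina3f call without replicate 1 of implanted PBS (2.94, adjusted p = 0.0834).

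The difference of responses also passed in stalk-like cells, at -4.03 ± 0.40 for Serpina3f (limma, adjusted p = 5.35e-05) and -4.97 ± 0.48 for Serpina3g (adjusted p = 5.19e-05), and in tip-like cells for both genes (adjusted p = 5.95e-05 and 0.00199). In these fits 0.936% and 1.39% of all genes passed, and the call was kept in 9 of 9 alternatives for both genes and types. It did not pass for either gene in AQP7+ capillary-like, arterial-like or lymphatic-like cells, where 0.0575%, 0.0291% and 0.4% of genes passed, and whether the types differ from each other was not tested. After cGAMP, stalk-like cluster 1 had Serpina3f at 119 and 62.9 CPM in spontaneous and 94.6 and 115 CPM in implanted tumours, so that the models overlapped there.

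In some other vessel types the models did not overlap after cGAMP. In arterial-like cluster 3 Serpina3g had 8.44 and 8.56 CPM in spontaneous and 94.5 and 127 CPM in implanted tumours, higher by 3.54 ± 0.55 (limma, adjusted p = 0.000694, where 6.89% of genes passed), and Serpina3f was higher by 2.40 ± 0.38 (adjusted p = 0.000748). Both calls were kept in 9 of 9 alternatives. Serpina3i passed there at 2.48 ± 0.71 (limma, adjusted p = 0.0432), from 3 UMIs in the spontaneous cGAMP libraries, and this was kept in 3 of 7 alternatives. It met the filter there only through the implanted cGAMP libraries, at 11.7 and 13.5 CPM, so this call is not counted. In tip-like cells Serpina3f was higher by 1.47 ± 0.36 (limma, adjusted p = 0.0170), with 53.6 and 52.9 CPM against 161 and 138 CPM, and this was lost without any single cGAMP library (adjusted p of 0.0603 to 0.142). Over both arterial-like clusters Serpina3g was higher by 2.74 ± 0.67 (limma, adjusted p = 0.0355), also lost without any single cGAMP library (adjusted p of 0.0892 to 0.169). In stalk-like cells Serpina3n was higher by 0.79 ± 0.20 (limma, adjusted p = 0.0231), lost without either replicate of spontaneous cGAMP (adjusted p = 0.117 and 0.140) or replicate 2 of implanted cGAMP (adjusted p = 0.0715). Where tested, no other of the 4 genes passed in limma in the 5 named types, where 1.45% (AQP7+ capillary-like), 4.67% (arterial-like), 0.00908% (lymphatic-like), 11.3% (stalk-like) and 10.3% (tip-like) of genes passed.

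The arterial-like clusters are given one by one. Cluster 3 (Npr3, Gja5) had 0 UMIs of Serpina3f in spontaneous PBS and 44 UMIs or 23.8 CPM in the pooled spontaneous cGAMP libraries, at least 17.5-fold higher on the same floor (limma, adjusted p = 1.5e-07, where 4.19% of genes passed). It had 42.2 and 24.4 CPM in implanted PBS and 114 and 106 CPM in implanted cGAMP. In implanted tumours this was a rise of 1.75 ± 0.38 (limma, adjusted p = 0.00379, where 14.7% of genes passed), lost without replicate 2 of implanted PBS (adjusted p = 0.139). Cluster 4 (Gkn3, Mgp) stayed at 0 to 20.2 CPM of Serpina3f and 0 to 8.5 CPM of Serpina3g in all 8 libraries, and neither gene passed there in any of the 5 comparisons in limma. In this cluster 2.37% and 1.52% of genes passed in the spontaneous and implanted responses, 0% for their difference, and 0.0659% and 0.801% between models after PBS and cGAMP. Whether the arterial-like clusters differ was not tested. For Serpina3f in cluster 4 the higher values, 10.9 and 20.2 CPM, were in replicate 2 of spontaneous PBS and of spontaneous cGAMP.

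**Figure D5:**
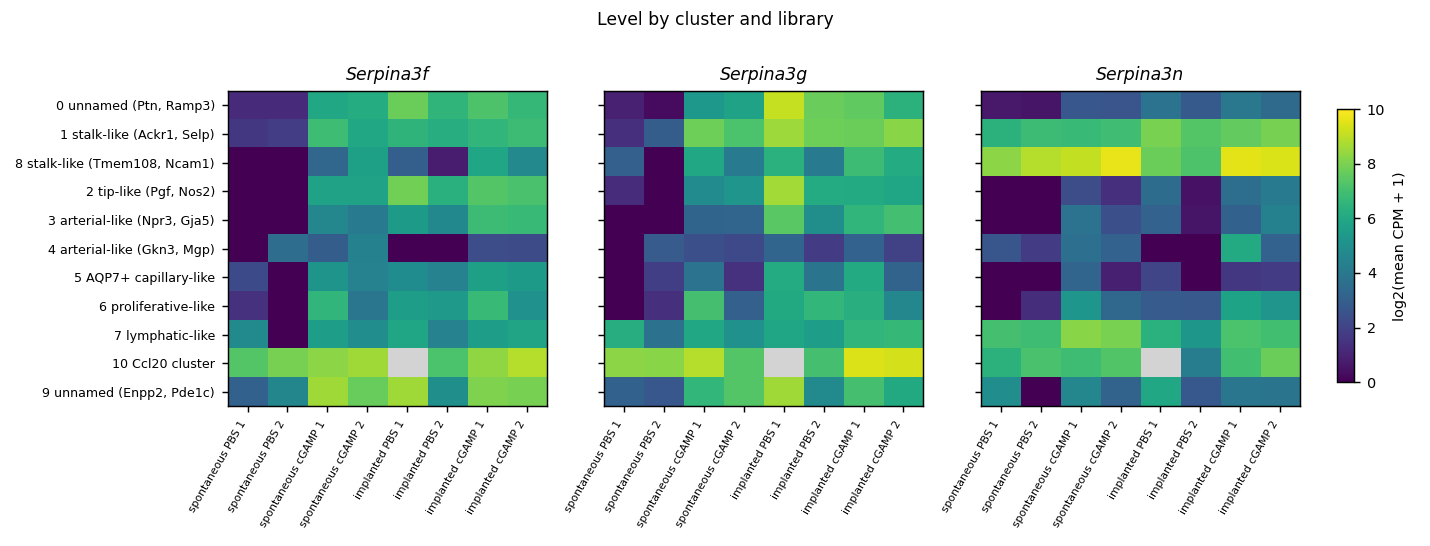
Heat maps of log2(mean CPM + 1) for Serpina3f, Serpina3g and Serpina3n by cluster (rows) and library (columns), on 1 colour scale; grey marks a library with no cell of the cluster. Serpina3f and Serpina3g are low in most spontaneous PBS clusters and highest there in the Ccl20 cluster. Lymphatic-like cluster 7 reaches 73.2 CPM of Serpina3g in replicate 1 of spontaneous PBS. In arterial-like cluster 4 both genes are at 20.2 CPM or below in every library, whereas Serpina3n is at 85.2 CPM or above in every library in clusters 1 and 8.

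Serpina3n had another distribution. Stalk-like cluster 8 had the highest level in all groups but implanted PBS, where cluster 1 was higher in both libraries. Cluster 8 held Serpina3n at 304 and 474 CPM in spontaneous PBS, 546 and 811 CPM in spontaneous cGAMP, 218 and 148 CPM in implanted PBS and 776 and 688 CPM in implanted cGAMP, from 5 to 77 cells per library. Stalk-like cluster 1 ranged from 85.2 to 251 CPM and lymphatic-like cluster 7 from 38.4 to 298 CPM over the 8 libraries. In cluster 0 it stayed between 0.5 and 15.3 CPM and in tip-like cluster 2 between 0 and 16.2 CPM. In cluster 1, Serpina3n was higher in the implanted model both after PBS (limma, adjusted p = 0.00884) and after cGAMP, by 0.94 ± 0.21 (adjusted p = 0.0119), where 6.13% and 10.7% of genes passed. In limma the first was lost without replicate 1 of implanted PBS (0.67, adjusted p = 0.222) or replicate 1 of spontaneous PBS (0.79, adjusted p = 0.137), and the second without either replicate of spontaneous cGAMP (adjusted p = 0.0993 and 0.0813). The groups did not overlap in either case, with 85.2 and 115 against 251 and 157 CPM after PBS and 108 and 120 against 195 and 246 CPM after cGAMP. The response of Serpina3n to cGAMP passed in neither model in stalk-like cells, which pool clusters 1 and 8. Cluster 8 gave 127 cells in implanted PBS and 23 in implanted cGAMP, while its own mean level was 183 and 732 CPM.

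In arterial-like and lymphatic-like cells of implanted tumours, 3 calls rested on few cells or 1 library. Serpina3n rose in arterial-like cells by 3.21 ± 0.75 (limma, adjusted p = 0.0145, where 9.09% of genes passed) from a level of 0 UMIs in cluster 4 after PBS to 67.5 and 7.9 CPM there after cGAMP. It was not kept without replicate 2 of implanted PBS (2.08, limma, adjusted p = 0.173) or replicate 1 of implanted cGAMP (2.39, adjusted p = 0.153), the library with 146 mural-like cells. In cluster 4 alone Serpina3n also passed (limma, adjusted p = 0.0180), and this was lost without replicate 1 of implanted cGAMP (adjusted p = 0.430) or either replicate of implanted PBS (adjusted p = 0.0982 and 0.125). In lymphatic-like cells Serpina3g rose by 1.85 ± 0.40 (limma, adjusted p = 0.0194) and Serpina3n by 1.38 ± 0.31 (adjusted p = 0.0237), where 3.14% of genes passed. This type includes the Ccl20 cluster, which had 0 and 4 cells in implanted PBS and 12 and 19 cells in implanted cGAMP. In cluster 7 alone Serpina3g was 59.7 and 48.3 CPM after PBS and 93.9 and 99.1 CPM after cGAMP. The Serpina3g call was lost without any single implanted library (limma, adjusted p of 0.0869 without replicate 1 of cGAMP to 0.279 without replicate 2 of cGAMP). The Serpina3n call was not kept without replicate 2 of implanted PBS (0.81, limma, adjusted p = 0.365) or either replicate of implanted cGAMP (adjusted p = 0.161 and 0.217).

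The genes with the most similar pattern were sought over 40 library-by-type means of 6 types, among 8374 genes. For Serpina3f they were Gm4951 (Pearson r = 0.917), Cd74 (0.915) and H2-Ab1 (0.914), and for Serpina3g they were H2-Ab1 (0.910), Ubd (0.889) and Serpina3f (0.883). For Serpina3i they were Serpina3g (0.758), Serpina3f (0.742) and Sema3a (0.723), and for Serpina3n they were Mustn1 (0.872), Fgl2 (0.860) and Fam174b (0.855). The points share libraries and types, so these values describe likeness and carry no test. Cd74 and H2-Ab1 encode parts of the MHC class II pathway, and Ubd encodes a ubiquitin-like modifier.

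Related gene lists were counted in the same fits. Of 31 other serpins 12 could be tested. In spontaneous tumours 4 rose and 1 fell (median log2 change 0.64, against -0.10 for all genes), and in implanted tumours 4 rose and 2 fell (median 0.24, against -0.10). Over all genes tested 5.09% rose and 7.59% fell in spontaneous and 8.6% rose and 16.4% fell in implanted tumours, which is the background for each list here. Serping1, the C1 inhibitor, rose by 3.45 ± 0.64 in spontaneous and 3.46 ± 0.64 in implanted tumours (limma, adjusted p = 0.00824 and 0.00429). Serpinf1, which encodes the anti-angiogenic factor PEDF, fell by 1.47 ± 0.29 and 1.40 ± 0.29 (limma, adjusted p = 0.0115 and 0.00729). Serpinb6a, an intracellular serpin, fell by 0.31 ± 0.09 in implanted tumours (limma, adjusted p = 0.0278). None of the 12 was called for the difference of responses in limma, where 0.662% of all genes were.

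Among proteases that serpins of this family inhibit and their relatives, 12 of 22 could be tested, of which 2 rose and 1 fell in spontaneous tumours and 3 rose and 3 fell in implanted tumours (over all genes, 5.09% up and 7.59% down, and 8.6% up and 16.4% down). Ctss, a lysosomal cathepsin, rose by 1.24 ± 0.35 in the spontaneous and by 4.08 ± 0.35 in the implanted model (limma, adjusted p = 0.0464 and 5.92e-05), and was the only 1 of the 12 called for the difference of responses. The summed immune markers were also highest in implanted cGAMP libraries, and their part in this value was not tested. The methods gate live ECs as CD45-negative, and how fully this removed leukocytes was not tested. Ctsb, the cathepsin B that Serpina3g can inhibit, rose by 0.41 ± 0.10 in spontaneous tumours (limma, adjusted p = 0.0244). Ctsh fell by 1.17 ± 0.30 and 1.44 ± 0.30 in the spontaneous and implanted models (limma, adjusted p = 0.0332 and 0.00732), Ctsa fell by 0.36 ± 0.10 in implanted tumours (adjusted p = 0.0342), and Gzma, a granzyme of lymphocytes, rose there by 1.80 ± 0.49 (adjusted p = 0.0244).

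Of 23 genes of interferon-gamma activated transcription, 19 rose in spontaneous tumours (median 2.41) and 18 rose and 1 fell in implanted tumours (median 1.19). After PBS 18 were higher in implanted tumours (median 1.57), against 3.39% of all genes. For the difference of responses 9 were lower (median -1.22), against 0.46% of all genes. Cxcl9, a T cell chemokine, rose by 5.81 ± 0.29 in spontaneous tumours (limma, adjusted p = 1.49e-06), from a mean of 25.6 to 1478 CPM, and had 1271 CPM in implanted PBS and 3338 CPM in implanted cGAMP. Cxcl10 rose by 4.79 ± 0.41 and 2.17 ± 0.41 in the spontaneous and implanted models (limma, adjusted p = 5.64e-05 and 0.00484). Stat2 rose by 1.62 ± 0.12 in implanted tumours (limma, adjusted p = 2.98e-05), and the interferon-gamma receptor gene Ifngr1 fell by 0.39 ± 0.08 (adjusted p = 0.00834).

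Of 30 acute phase and STAT3 genes 22 could be tested, with 6 up and 1 down in spontaneous tumours and 6 up and 4 down in implanted tumours, where 12.7% and 25% of all genes passed. Saa3, a serum amyloid gene, rose from a mean of 1.99 to 24.9 CPM in spontaneous and from 0.890 to 26.7 CPM in implanted tumours (limma, adjusted p = 0.00889 and 0.00132), Il6ra by 0.84 ± 0.21 in spontaneous tumours (adjusted p = 0.0306) and Timp1 by 1.39 ± 0.11 in implanted tumours (adjusted p = 5.30e-05). Il1r1, the interleukin 1 receptor gene, fell by 0.76 ± 0.18 and 0.83 ± 0.18 (limma, adjusted p = 0.0262 and 0.00916), and Il6st fell by 0.69 ± 0.17 in implanted tumours (adjusted p = 0.0165). Of 11 NF-kB subunits and inhibitors 0 passed in spontaneous tumours in limma, and 4 rose in implanted tumours, where 12.7% of all genes passed in the former and 8.6% rose in the latter. Among them were Tnfaip3 (1.06 ± 0.14, limma, adjusted p = 0.000635) and Birc3 (0.97 ± 0.25, adjusted p = 0.0196), which both restrain or relay TNF signalling.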

How the data were processed

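Live CD31+ cells of 8 libraries were profiled by 10x 3′ single-cell RNA sequencing, and the submitters' processing notes name Cell Ranger 3.0.0, Seurat 3.1.1 and the mm10 genome. The authors deposited 1 natural log table per library, ln(1 + 10000 × UMIs / cell total), of filtered genes and cells. UMIs were worked back from these values (whole within 0.01) and given as CPM per cell. How the deposited cells were chosen is not settled, and doublets were not called here.

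A library's level was its mean CPM over cells with a Pecam1 UMI. Genes that reached 5 CPM in 2 or more libraries entered the test on log2(CPM + 1) by limma 3.58.1 (R 4.3.3) in 1 fit of all 8 libraries, with Benjamini-Hochberg adjustment over 10424 genes and calls at an adjusted p under 0.05. The study tested single cells, but cells of a library are not replicates. Cells were clustered with Seurat 5.3.0 (anchor integration, 2500 variable genes, 30 components, resolution 0.5), leaving out 439 genes, and types were tested from libraries with at least 20 of their cells. The fit was tested on simulated data. Sequences came from RefSeq (GRCm38.p6). Replicates are separate libraries, and 0 columns were left unused.

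The 4 genes, the lists and the tests were chosen with earlier results of these data known. Named genes are the 4 genes, other Serpina3 genes, the 2 with the largest change in each direction among called genes of each list and response, and the 3 most like each member. A gene that this rule names is not reported here. The lists were other serpins, proteases, interferon-gamma activated transcription, acute phase and STAT3 genes, and NF-kB subunits and inhibitors.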

Additional observations from a re-analysis of the deposited data

Results flagged for a closer look

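The cGAMP response differed between the models by a test of the difference itself (limma) in 7 cases. For Serpina3g in all Pecam1 > 0 cells the implanted response was lower than the spontaneous one by a log2 difference of -3.31 (adjusted p = 0.0398), and this call was lost without any single spontaneous library. In the unnamed cluster 0 the differences were -5.07 for Serpina3f and -6.37 for Serpina3g (limma, adjusted p = 2.21e-05 and 2.78e-05). In stalk-like cells they were -4.03 and -4.97 (limma, adjusted p = 5.35e-05 and 5.19e-05). In tip-like cells they were -5.62 and -5.76 (limma, adjusted p = 5.95e-05 and 0.00199), where the value of Serpina3f depends on the pseudocount because it had 0 UMIs in both spontaneous PBS libraries.

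Cells without a Pecam1 UMI lie outside the comparisons and had signal above the PBS libraries of the same model in 3 cases. Serpina3i in spontaneous cGAMP had 16.5 and 3.11 CPM, from only 3 and 1 UMIs, against 0 and 1.09 CPM after PBS. Serpina3g in spontaneous cGAMP had 18.5 and 4.95 CPM (mean 11.8), from 4 and 3 UMIs, against 0 and 2.36 CPM after PBS. Serpina3n in implanted cGAMP had 72.0 and 79.9 CPM (mean 75.9), against 6.39 and 20.5 CPM after PBS. Median depth in these cells was 1105 to 2383 UMIs, and their part in the results above was not tested.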

How the results depend on the processing

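The spontaneous rise of Serpina3f and Serpina3g, and their higher level in implanted tumours after PBS, passed in 20 of 20 alternatives each. EC clusters alone and single clusters were chosen after seeing the data. Causes of the shifts below were not tested. Genes called in spontaneous tumours went from 1322 to 812 without the filter on low values, 2839 from summed UMIs and 736 at 2000 UMIs per cell, and in implanted tumours from 2609 to 1456 at 2000 UMIs. For the difference of responses they went from 69 to 0 without the filter (limma; 1945 at an unadjusted p under 0.05), 112 from summed UMIs, 106 outside other cell types, 43 in all cells and 123 in EC clusters. After PBS they went from 816 to 327, 1317 (summed UMIs), 418 (2000 UMIs) and 1277 (EC clusters), and after cGAMP from 1434 to 784 without the filter and 727 at 2000 UMIs. Leaving out 1 library gave 448 to 1808 genes in spontaneous tumours, 1265 to 2495 in implanted tumours, 2 to 171 for the difference, 212 to 1234 after PBS and 156 to 1447 after cGAMP.

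In spontaneous tumours Serpina3i passed at a pseudocount of 0.1 (1.89), from summed UMIs (1.21), outside other cell types (1.41), with at least 2 Pecam1 UMIs (1.39) and in EC clusters (1.43). Its implanted change turned negative at a pseudocount of 5 (-0.0062), in all cells (-0.12), at 2000 UMIs (-0.032) and without 1 library (range -0.57 to 0.24). Serpina3n in implanted tumours passed from summed UMIs (0.83) and at 2000 UMIs (0.97), with 0.34 to 1.16 without 1 library, against -0.20 to 1.24 for Serpina3f and -1.17 to 0.39 for Serpina3g. The difference of Serpina3f passed at a pseudocount of 0.1 (-3.21), from summed UMIs (-3.08), outside other cell types (-3.00), with at least 2 Pecam1 UMIs (-3.02), at 2000 UMIs (-2.63) and in EC clusters (-2.79), and that of Serpina3g was lost at a pseudocount of 5 (-2.76) and without the filter (-3.31). Without 1 library these ranged from -3.68 to -2.24 and -4.08 to -2.53, and that of Serpina3n from -0.20 to 0.62, negative without replicate 2 of spontaneous PBS (-0.05), replicate 2 of implanted PBS (-0.12) or replicate 1 of implanted cGAMP. After PBS Serpina3i was lost at a pseudocount of 5 (0.87), without the filter (1.78) and at 2000 UMIs (1.65), with 1.69 to 2.38 without 1 library, and it could not be tested without replicate 1 of implanted PBS or of implanted cGAMP. After cGAMP Serpina3f (1.04) and Serpina3g (1.11) passed at 2000 UMIs, and Serpina3n passed outside other cell types (0.71) and in EC clusters (0.79). Their ranges without 1 library were 0.64 to 1.02, 1.01 to 1.36 and 0.39 to 1.21.

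Replicate numbers did not pair the samples (correlations of deviations -0.216 to 0.125). With the replicate block Serpina3g passed after cGAMP (1.18, limma, adjusted p = 0.0489), and in spontaneous tumours Serpina3i and Serpina3n were called in 1 type each. Without 1 library these were 0 to 1 types each, and in implanted tumours 0 to 2 for Serpina3f, 0 to 1 for Serpina3g and 0 to 3 for Serpina3n. Mean shares of cells were 20.8%, 19.4%, 5.33% and 16.5% unthinned for Serpina3f, Serpina3g, Serpina3i and Serpina3n, and 4.92%, 6.18% and 4.40% at 1000 UMIs for Serpina3f, Serpina3g and Serpina3n. With 2 libraries a group and 10 to 136 UMIs of Serpina3i per library, small changes were not detectable.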

Other observations

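At a finer cluster resolution of 0.8 an unnamed cluster of 576 cells was led by Moxd1, Serpina3g, Ubd, Car4, Cxcl9, Cd74 and Serpina3f, although the Serpina3 genes were kept out of the clustering. As these genes define the cluster, their level in it is not a result.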
